A study of Mus musculus with 6 samples.

Results

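The transcripts that govern branched-chain amino acid (BCAA) uptake and breakdown were examined in mouse forebrain after acute water avoidance stress (WAS). The group comprised 10 genes chosen by symbol, namely Slc7a5, Slc3a2, Bcat1, Bcat2, Bckdha, Bckdhb, Bckdk, Dbt, Ivd and Auh. Each of the 10 symbols was found in exactly 1 of the 23282 rows of the count tables. All 10 passed the filter on low counts and were among the 15239 genes tested. None of the 10 passed an adjusted p of 0.05, and the only one with an unadjusted p under 0.05 was Ivd, with a log2 fold change of WAS over control of 0.46, or 0.18 without WAS replicate 1.

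Male C57BL/6J mice aged 8 to 10 weeks were used in both groups, with no genetic modification named. The 3 mice labelled WAS spent 1 h on a platform with water around it, and for the 3 controls the water was left out. RNA came from 1 forebrain hemisphere per mouse, free of cerebellum and olfactory bulb and taken as soon as the hour was over. QuantSeq 3′ mRNA-Seq, which primes on the poly(A) tail and reads the ends of transcripts, gave 1 library per mouse. In bulk tissue of this kind, fewer cells of a type and less RNA per cell cannot be told apart.

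Leucine, isoleucine and valine are essential amino acids that the brain takes up from blood. They cross the blood-brain barrier and cell membranes through LAT1, a heteromer of the carrier SLC7A5 and the heavy chain SLC3A2, which brings the carrier to the membrane. Inside cells, the cytosolic aminotransferase BCAT1 or the mitochondrial BCAT2 moves their amino group to α-ketoglutarate, and in the brain this is a known source of nitrogen for glutamate. The resulting keto acids are decarboxylated in mitochondria by the branched-chain α-keto acid dehydrogenase (BCKDH) complex. Its E1 subunits are encoded by Bckdha and Bckdhb and its E2 core by Dbt. The kinase BCKDK phosphorylates E1α and switches the complex off, and the phosphatase encoded by Ppm1k reverses this. On the leucine branch, IVD oxidizes isovaleryl-CoA and AUH hydrates methylglutaconyl-CoA.

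Libraries labelled WAS held 9248520 to 10067053 counts and those labelled control 9977945 to 10502029. Count columns were headed WC for libraries with the WAS label but WS for those with the control label, and the methods do not define these letters. Groups follow the sample labels, and an exchange of the labels would turn every direction below around. Among the 9 marker lists examined, those for brain regions stood apart by library. The summed level of 9 striatum genes was 183 CPM (counts scaled to the library total) in WAS replicate 1 and 414 CPM in WAS replicate 3, against 2130 CPM in WAS replicate 2 and 1064 to 1457 CPM in the controls. The summed level of 9 thalamus and midbrain genes was 499 and 420 CPM in WAS replicates 1 and 3, against 124 CPM in WAS replicate 2 and 73.5 to 138 CPM in the controls. Summed choroid plexus markers were 62.5 CPM in WAS replicate 1 and 18.4 CPM in control replicate 2, against 947 to 1260 CPM in the other 4 libraries. All listed markers of neurons (9), astrocytes (10), oligodendrocytes (9), microglia (9) and endothelium (11) were detected in every library, as were at least 5 of 6 red blood cell markers. The summed levels of these lists overlapped between the groups. Of the 9 neuron genes, 3 had an unadjusted p under 0.05, all lower in WAS, namely Rbfox3 (log2 fold change -0.36), Slc17a7 (-0.32) and Syt1 (-0.24). Most of the neuron sum was Meg3, at 12189 CPM in WAS and 10606 CPM in control on average. Of the 10 astrocyte genes, 2 had an unadjusted p under 0.05, both higher in WAS, namely Aqp4 (0.36) and Aldoc (0.22). None of these 5 markers passed the adjusted threshold in edgeR (Slc17a7 was lowest at 0.514 and Aldoc highest at 0.634), and the unadjusted one was passed by 7.24% of all genes tested. No such gene was found in the oligodendrocyte, microglia, endothelium and red blood cell lists. The part of these markers in the results below was not tested. Because of the regional markers, the log2 fold change of each of the 10 genes is also given without WAS replicates 1 and 3.

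The uptake pair was measured at nearly the same level in both groups. Slc7a5 had 207, 171 and 173 counts in WAS replicates 1, 2 and 3 and 207, 194 and 170 in control replicates 1, 2 and 3. This corresponded to 18.8 ± 1.64 CPM (SD, n = 3) for WAS and 18.5 ± 1.35 CPM (SD, n = 3) for control. The groups overlapped, and the 6 libraries spanned a ratio of 1.21 from lowest to highest. The log2 fold change of Slc7a5 was -0.012 (standard error, SE, 0.13), and its p adjusted after Benjamini and Hochberg over all genes was 0.994 in edgeR's quasi-likelihood fit. It was -0.039 without WAS replicates 1 and 3. The value turned to 0.024 when counts were scaled by library totals instead of by TMM. The 95% interval of the fold change ran from 0.808 to 1.22, so a fold change of 1.5 in either direction lay outside it.

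Slc3a2, the heavy chain that also partners other light chains of the SLC7 family, was the most abundant of the 10 genes in these counts. Its counts were 1475, 1245 and 1591 in WAS replicates 1 to 3 and 1465, 1527 and 1323 in control replicates 1 to 3. The highest and the second lowest level of the 6 libraries were both in the WAS group, at 159 CPM in replicate 3 and 135 CPM in replicate 2. The means were 147 ± 12.4 CPM (SD, n = 3) for WAS and 140 ± 7.26 CPM (SD, n = 3) for control. On the log2 scale the fold change of Slc3a2 was 0.035 (SE 0.090, adjusted p = 0.968 in edgeR), with a 95% interval of the fold change from 0.894 to 1.17. It was -0.094 without WAS replicates 1 and 3. Within a library, the ratio of Slc7a5 to Slc3a2 counts lay between 0.109 in WAS replicate 3 and 0.141 in control replicate 1, and the groups overlapped. The principal transcript of Slc3a2 shared no stretch of 50 bases in its last 500 bases with another gene. A longer annotated end of Slc3a2 shared such stretches with 147 other genes, and because the authors counted multiple alignments, reads from that end could be counted for more than 1 gene.

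The aminotransferases differed widely in level. Bcat1, the cytosolic enzyme, had 587, 394 and 486 counts in WAS replicates 1 to 3 against 422, 412 and 457 in control replicates 1 to 3. In CPM these were 58.3, 42.6 and 48.7 against 40.2, 39.7 and 45.8. WAS replicates 1 and 3 lay above every control library, whereas WAS replicate 2 lay below control replicate 3. Bcat1 had a log2 fold change of 0.21 (SE 0.13, unadjusted p = 0.120, adjusted p = 0.779 in edgeR). The value was sensitive to single libraries of the WAS group, with 0.085 without WAS replicate 1 and 0.31 without WAS replicate 2. Only the latter fit gave an unadjusted p under 0.05 (0.0237, adjusted p = 0.25), and in that fit 13.7% of all genes tested did so. Without WAS replicates 1 and 3 it was -0.016.

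Bcat2, the mitochondrial enzyme, was the scarcest of the 10 genes, with 7, 13 and 16 counts in WAS replicates 1 to 3 and 18, 10 and 21 counts in control replicates 1 to 3. Its level was 1.23 ± 0.477 CPM (SD, n = 3) for WAS and 1.59 ± 0.580 CPM (SD, n = 3) for control. The highest library held 3.03 times the level of the lowest. For Bcat2 the log2 fold change was -0.40 (SE 0.49, adjusted p = 0.927 in edgeR), and the 95% interval of the fold change, from 0.360 to 1.59, reached past 1.5-fold in both directions. Single libraries moved this value, to -0.12 without WAS replicate 1, -0.64 without WAS replicate 3, -0.66 without control replicate 2 and -0.15 without control replicate 3. It was -0.22 without WAS replicates 1 and 3. These libraries therefore could not show whether Bcat2 differed by 1.5-fold. The ratio of Bcat1 to Bcat2 counts was 83.9 in WAS replicate 1 and between 21.8 and 41.2 in the other 5 libraries. These were the highest Bcat1 and the lowest Bcat2 levels of the series, both in WAS replicate 1.

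**Figure D1:**
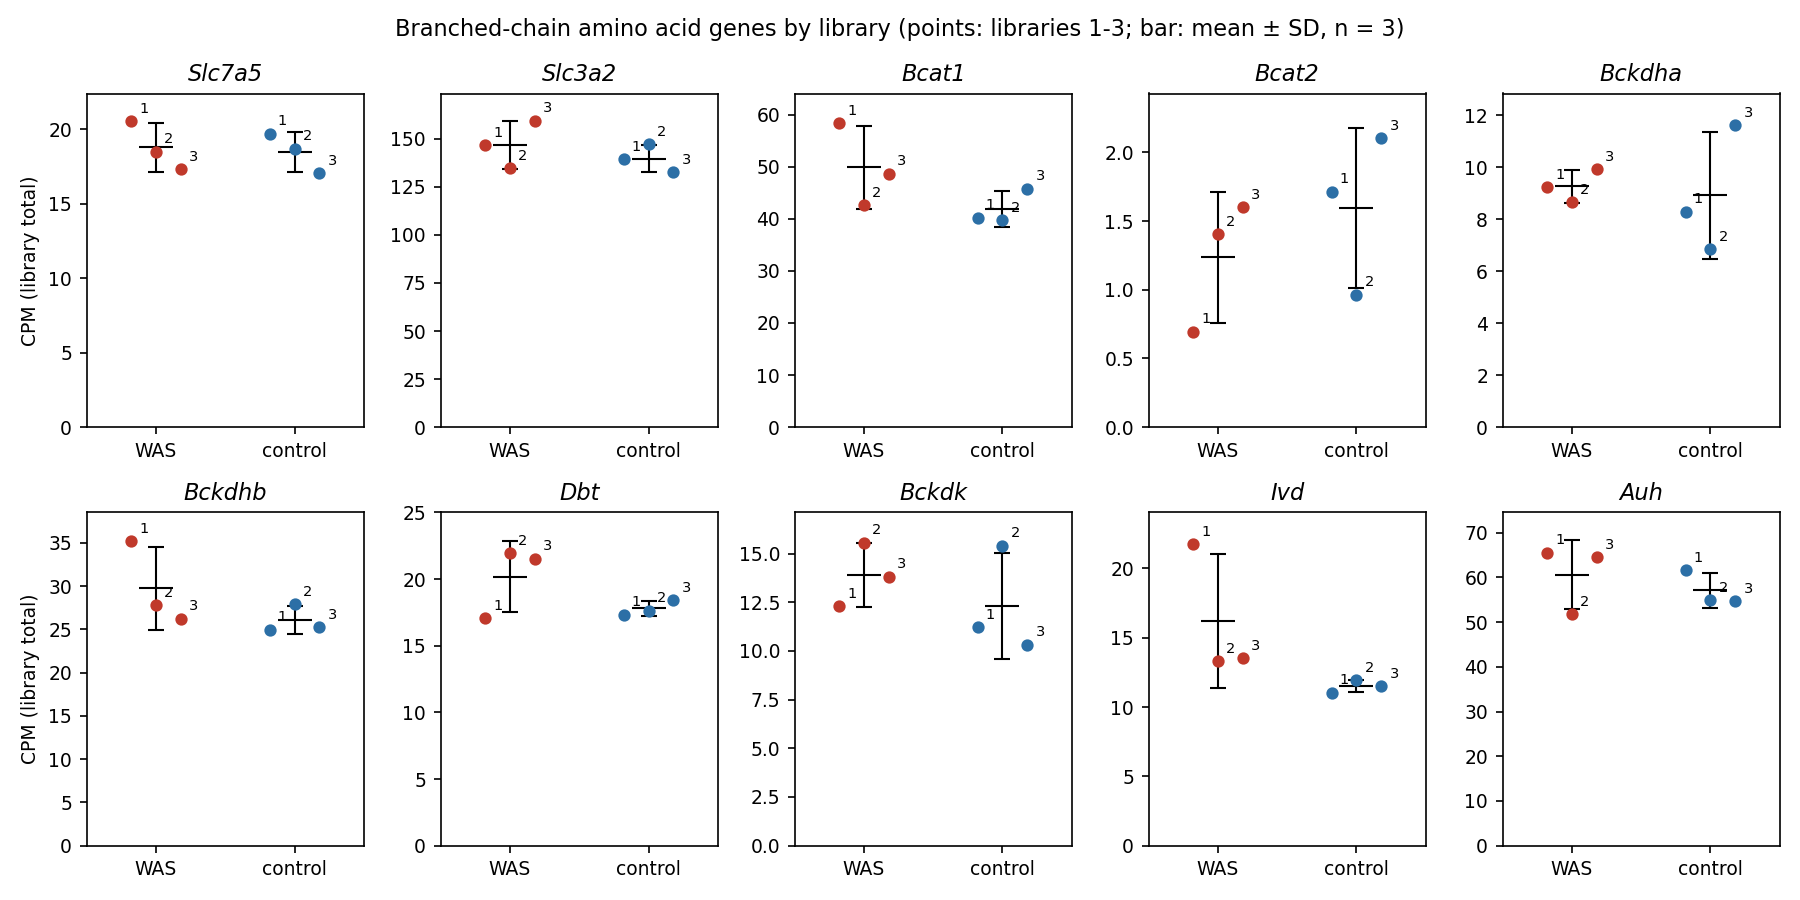
Level of each of the 10 genes in CPM of the library total (y axis, from 0), by labelled group (x axis), with 1 point per library numbered by replicate and bars for the mean and SD of 3 libraries. The groups overlap for 9 genes, and Ivd, at 21.8 CPM in WAS replicate 1 and 13.3 to 13.5 CPM in the other WAS libraries against 11.0 to 11.9 CPM in the controls, is the exception.

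The 3 subunit genes of the BCKDH complex had log2 fold changes between 0.020 and 0.15, none of which passed the test. Bckdha, for E1α, had 93, 80 and 99 counts in WAS replicates 1 to 3 and 87, 71 and 116 in control replicates 1 to 3. Both the highest level (11.6 CPM) and the lowest (6.84 CPM) were in control libraries, and the WAS values lay between them. Its log2 fold change was 0.020 (SE 0.22, adjusted p = 0.994 in edgeR). The sign depended on the libraries, with -0.14 without control replicate 2, 0.27 without control replicate 3 and -0.084 without WAS replicates 1 and 3. The last 500 bases of the Bckdha transcript overlap B3gnt8, a gene on the opposite strand with its own row, and without stated use of strand the reads of the pair cannot be told apart.

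Bckdhb, for E1β, had 354, 257 and 262 counts in WAS replicates 1 to 3 and 262, 290 and 252 in control replicates 1 to 3. WAS replicate 1 stood above all other libraries at 35.2 CPM, and the other 5 lay between 24.9 and 27.9 CPM. For Bckdhb the log2 fold change was 0.15 (SE 0.14, adjusted p = 0.889 in edgeR), and it was 0.013 without WAS replicate 1, 0.24 without WAS replicate 3 and 0.053 without both. Dbt, for the E2 core that carries the lipoyl group, differed from Bckdhb in where WAS replicate 1 lay. Its counts were 172, 203 and 215 in WAS replicates 1 to 3 and 182, 183 and 184 in control replicates 1 to 3. WAS replicate 1 had the lowest level of the series, at 17.1 CPM, whereas WAS replicates 2 and 3, at 21.9 and 21.5 CPM, exceeded every control. Dbt had a log2 fold change of 0.14 (SE 0.14, adjusted p = 0.897 in edgeR). It was 0.25 without WAS replicate 1, 0.079 without WAS replicate 2, 0.093 without WAS replicate 3 and 0.26 without WAS replicates 1 and 3.

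Summed over Bckdha, Bckdhb and Dbt, the level was 61.5, 58.4 and 57.7 CPM in WAS replicates 1 to 3 and 50.6, 52.4 and 55.3 CPM in control replicates 1 to 3. Scaled to library totals, the sums of the groups did not overlap, although the values of each subunit did. Groups were also apart for 12.2% of all genes tested, and no such share was taken for sums. The mean of the sum was 59.2 ± 2.02 CPM (SD, n = 3) for WAS and 52.8 ± 2.40 CPM (SD, n = 3) for control, a ratio of 1.12. On the log2 scale this ratio was 0.17, and 0.13 with TMM-scaled CPM. Total-count scaling also put the median log2 fold change of all genes tested at 0.038. No test was made on a sum of chosen genes. The other sums, over the uptake pair, the aminotransferases, and Ivd with Auh, overlapped between the groups.

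Bckdk, the kinase that restrains the complex, had 124, 144 and 138 counts in WAS replicates 1 to 3 and 118, 160 and 103 in control replicates 1 to 3. The controls spanned almost the whole range, from 10.3 CPM in replicate 3 to 15.4 CPM in replicate 2. Bckdk had a log2 fold change of 0.14 (SE 0.19, adjusted p = 0.941 in edgeR). With 1 library left out it was 0.21 without WAS replicate 1, 0.047 without WAS replicate 2, and 0.064, 0.33 and 0.030 without control replicates 1, 2 and 3. It was 0.30 without WAS replicates 1 and 3 and 0.41 without WAS replicate 1 and control replicate 2. Kinase and E1α levels ran in opposite order among the controls. The ratio of Bckdk to Bckdha counts was 1.36, 2.25 and 0.888 in control replicates 1 to 3, a wider spread than the 1.33, 1.80 and 1.39 in WAS replicates 1 to 3. The means of this ratio, 1.51 ± 0.254 (SD, n = 3) for WAS and 1.5 ± 0.694 (SD, n = 3) for control, differed by less than the spread within either group.

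Ivd, the isovaleryl-CoA dehydrogenase of leucine breakdown, was the one member whose groups did not overlap. The groups were likewise apart for 12.2% of all genes tested. Its counts were 219, 123 and 135 in WAS replicates 1 to 3 and 116, 124 and 115 in control replicates 1 to 3. In CPM, WAS replicate 1 stood at 21.8, the other WAS libraries at 13.3 and 13.5, and the controls at 11.0, 11.9 and 11.5. The means were 16.2 ± 4.82 CPM (SD, n = 3) for WAS and 11.5 ± 0.450 CPM (SD, n = 3) for control. For Ivd the log2 fold change was 0.46 (SE 0.20, 95% interval 0.0093 to 0.90, unadjusted p = 0.0461, adjusted p = 0.684 in edgeR).

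An unadjusted p under 0.05 was reached by 7.24% of all genes tested, so 1 of 10 members lay near the background. Without WAS replicate 1 the log2 fold change of Ivd was 0.18 (unadjusted p = 0.314), and without WAS replicates 1 and 3 it was 0.17 (unadjusted p = 0.488). The unadjusted p of Ivd also exceeded 0.05 without each of the controls, at 0.117, 0.0779 and 0.0841 for replicates 1, 2 and 3, with log2 fold changes of 0.42, 0.49 and 0.47 that stayed close to 0.46. WAS replicate 1 was also the library with the lowest striatum markers and the highest thalamus and midbrain markers. In WAS replicate 3 these lists were shifted the same way, and Ivd was at 13.5 CPM there and at 13.3 CPM in WAS replicate 2. The part of regional markers in the Ivd level was not tested.

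Because Ivd was the only member past the unadjusted threshold, the sequence before its start is shown. It spans chr2:118861744-118861953 of GRCm38.p6 on the + strand, from 250 to 41 bases before the RefSeq start, and lies outside the gene as GENCODE M21 annotates it. Capitals mark CCAAT boxes, here all on the reverse strand and read as ATTGG.
Ivd upstream region: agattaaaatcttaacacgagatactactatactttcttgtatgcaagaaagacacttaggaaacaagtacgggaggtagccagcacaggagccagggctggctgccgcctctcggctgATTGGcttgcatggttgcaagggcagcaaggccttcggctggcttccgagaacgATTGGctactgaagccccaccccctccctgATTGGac
This stretch of the Ivd promoter held 3 CCAAT boxes on either strand, a number reached by 1.89% of 32851 RefSeq promoters over the same 210 bases, and 29.9% of promoters held at least 1. RefSeq promoters were matched for 8 of the 10 genes, in 11 promoters, and CCAAT was found in 4 of the 11. The ATF4 element TGATGNAA, the E-box CACGTG and the palindromic glucocorticoid response element, searched on both strands, were found in 0 of the 11, and in 2.93%, 4.65% and 0.341% of all promoters. These are matches of letters in a short window and say nothing of binding.

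Auh, the methylglutaconyl-CoA hydratase that follows further down the leucine branch and also binds AU-rich RNA, had 660, 479 and 644 counts in WAS replicates 1 to 3 and 647, 570 and 546 in control replicates 1 to 3. Its level was 60.6 ± 7.66 CPM (SD, n = 3) for WAS and 57.1 ± 3.92 CPM (SD, n = 3) for control. The lowest library, at 51.8 CPM, was WAS replicate 2, and the 2 highest, at 65.6 and 64.5 CPM, were WAS replicates 1 and 3. Auh had a log2 fold change of 0.051 (SE 0.11, adjusted p = 0.964 in edgeR), and its value was 0.15 without WAS replicate 2 and -0.18 without WAS replicates 1 and 3. Ivd and Auh thus shared their highest library but not their lowest.

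**Figure D2:**
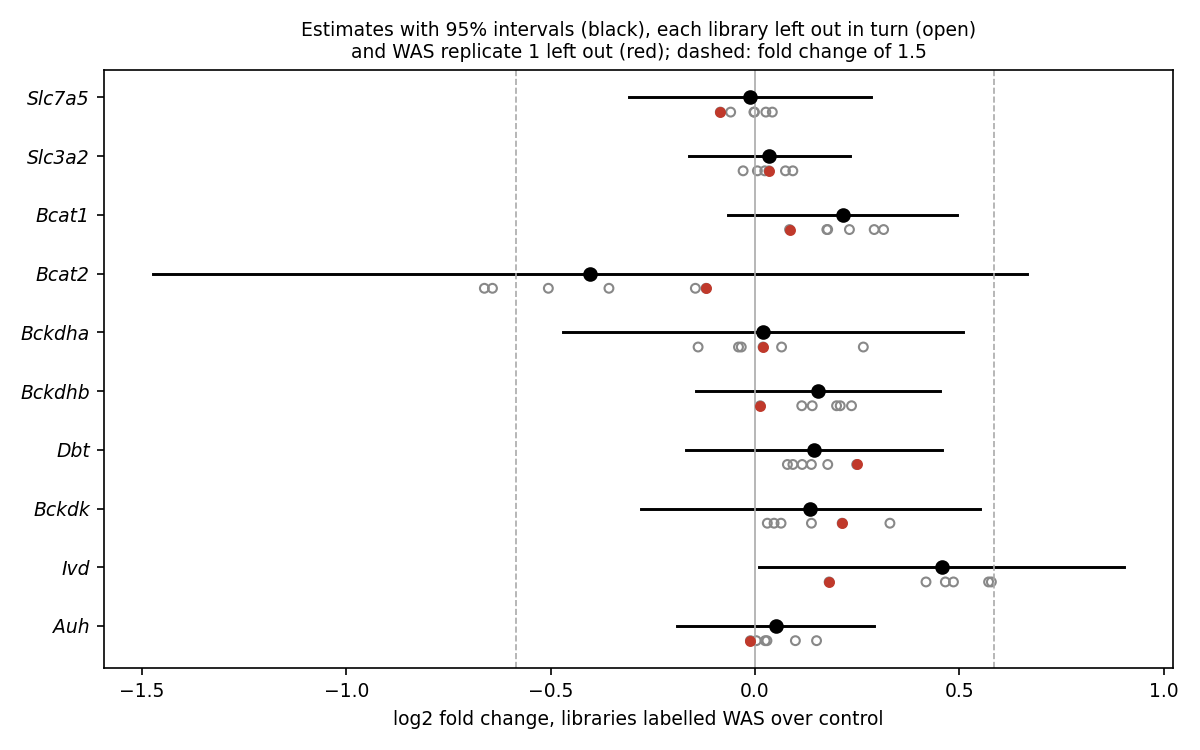
Log2 fold change of the libraries labelled WAS over those labelled control (x axis) for the 10 genes (y axis), with black points and bars for the estimate and its 95% interval, open circles for fits that each left out 1 library, red points for the fit without WAS replicate 1, and dashed lines at a fold change of 1.5. Every interval but that of Ivd includes 0, and leaving out WAS replicate 1 moves Ivd from 0.46 to 0.18.

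Across the 10 genes, 8 had a log2 fold change above 0 and 2 below, with a median of 0.093, beside a median of 0.00088 and 50.2% above 0 over all genes tested. Without WAS replicate 1 the median of the 10 was 0.027, and without WAS replicates 1 and 3 it was -0.028 with 4 of 10 above 0. None of the 10 combined an unadjusted p under 0.05 with a fold of 1.5 or more, the criteria of the study. In the TMM-scaled edgeR fit used here, 2.49% of all genes tested met these criteria. The study normalized by quantiles and names no test for expression, so its own share can differ. An adjusted p under 0.05 was reached by none of the 10, whether in edgeR, DESeq2 or limma, and the lowest among the 10 in edgeR was 0.684. In edgeR, 0 of the 15239 genes (0%) passed that threshold and 1104 had an unadjusted p under 0.05. DESeq2 called 22 genes at the adjusted threshold, and edgeR called 491 without WAS replicate 2, none of them a member in either case. The highest level of the 6 libraries was in WAS replicate 1 for 5 of the 10 genes (Slc7a5, Bcat1, Bckdhb, Ivd and Auh), where 23.1% of all genes tested had theirs.

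Counts from transcript ends are not divided by transcript length, and the levels of different genes are given only as end counts in CPM. Over the 6 libraries the order of mean level was Slc3a2 (143 CPM), Auh (58.9), Bcat1 (45.9), Bckdhb (27.9), Dbt (19.0), Slc7a5 (18.6), Ivd (13.8), Bckdk (13.1), Bckdha (9.09) and Bcat2 (1.41). Ranges of neighbours overlapped between Auh and Bcat1, and along the run from Dbt through Slc7a5, Ivd and Bckdk to Bckdha. The ranges of Slc3a2, Bckdhb and Bcat2 overlapped those of no neighbour. Slc3a2 ranked above 90.9% of the genes tested and Bcat2 above 11.8%. The biological coefficient of variation fitted by edgeR was lowest for Slc3a2 (9.35%) and highest for Bcat2 (32.0%), beside 14.04% common to all genes.

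**Figure D3:**
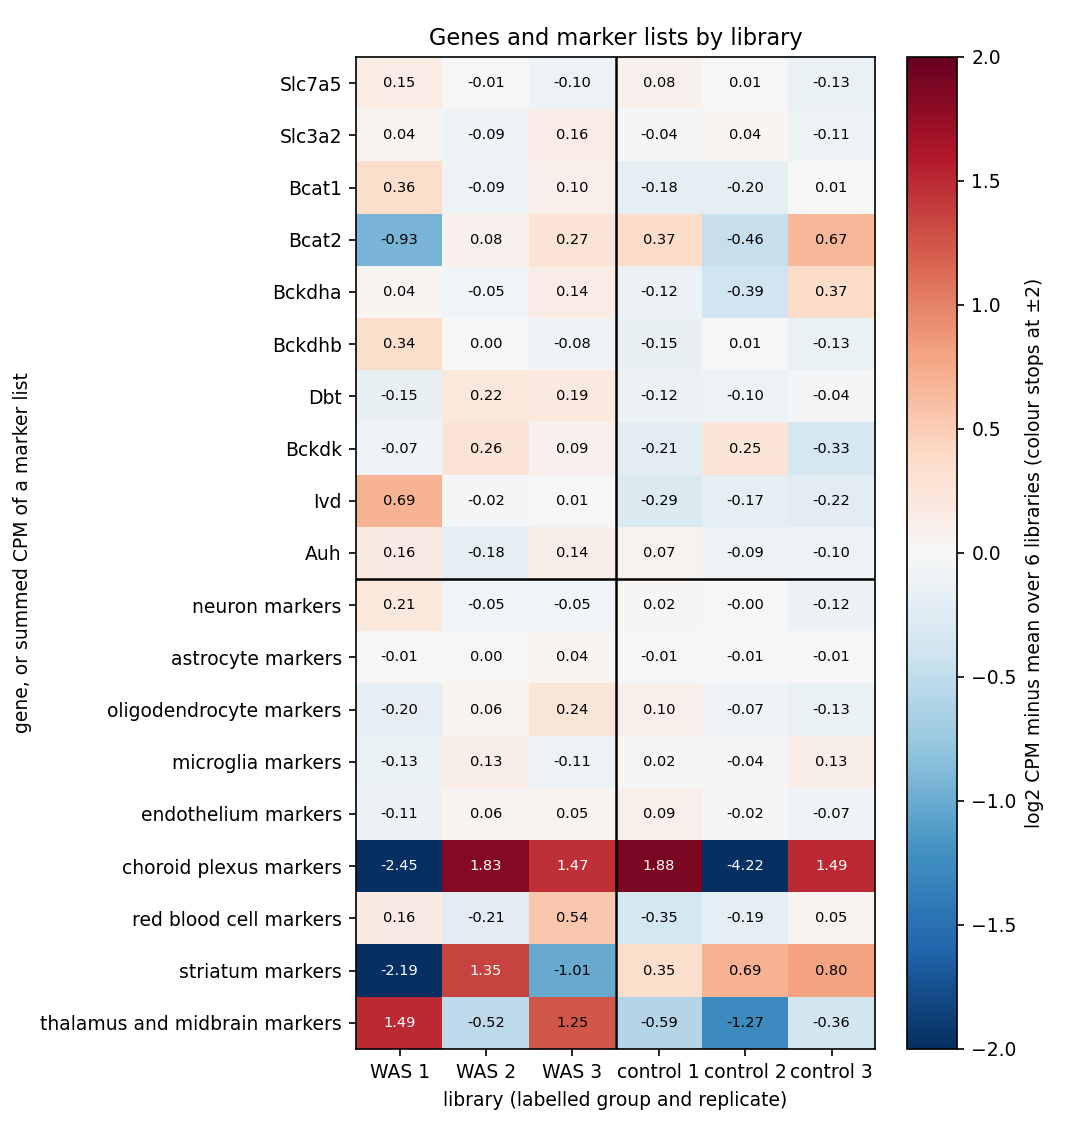
Log2 CPM minus its mean over the 6 libraries (colour and printed value, colour ending at -2 and 2) for the 10 genes and for the summed CPM of 9 marker lists (rows) in each library (columns). Striatum, thalamus and midbrain, and choroid plexus markers vary more between libraries than the 10 genes do, and WAS replicate 1 has the highest Ivd and Bcat1 and the lowest Bcat2.

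The genes are annotated in GRCm38 (GENCODE M21), the build the submitters name as mm10. Slc7a5 lies at chr8:121881150-121907694 and Slc3a2 at chr19:8706882-8723369, both on the minus strand. Bcat1 lies at chr6:144993835-145076184 (minus strand) and Bcat2 at chr7:45570153-45589711 (plus strand). Bckdha, at chr7:25629946-25658981 (minus strand), and Bckdk, at chr7:127904082-127910221 (plus strand), share a chromosome with Bcat2. Bckdhb lies at chr9:83925145-84124240, Dbt at chr3:116513070-116549981 and Ivd at chr2:118861954-118882909, each on the plus strand, and Auh at chr13:52835119-52929681 on the minus strand. The annotated 3′ UTR is 2323 bases long in the principal transcript of Ivd and 106 bases long in that of Slc3a2, and read positions were not examined. Outside Slc3a2, no annotated end of the 10 genes shared a stretch of 50 bases with a transcript of another gene. The last 500 bases of Slc7a5 overlap Gm20388, an annotated gene on the opposite strand that has no row in the tables.

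Other genes of the pathway were taken from 8 lists with 84 genes, of which 81 were tested. Of these, 7 had an unadjusted p under 0.05, 5 with higher and 2 with lower levels in WAS. Their share was 8.64%, beside 7.24% of all genes tested (3.85% higher and 3.4% lower). None passed an adjusted p of 0.05 in edgeR, and the median log2 fold change was 0.0086. These counts lie near the background. Groups that did not overlap are described below for genes picked by p. Over all genes tested, the groups were apart for 12.2%.

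Of the 2 other genes of the complex, 1 had an unadjusted p under 0.05, namely Ppm1k. The counts of this phosphatase gene were 1179, 1112 and 1179 in WAS replicates 1 to 3 and 1335, 1477 and 1270 in control replicates 1 to 3. Its level was 118 ± 1.60 CPM (SD, n = 3) against 132 ± 8.71 CPM (SD, n = 3), and the groups did not overlap. Ppm1k had a log2 fold change of -0.20 (SE 0.084, unadjusted p = 0.0397, adjusted p = 0.672 in edgeR). It kept its sign in all 14 alternative fits, and the unadjusted p was under 0.05 in 6 of them. The fit without WAS replicates 1 and 3 gave -0.18 (unadjusted p = 0.148). The ratio of Bckdk to Ppm1k counts was 0.105, 0.129 and 0.117 in WAS replicates 1 to 3 and 0.0884, 0.108 and 0.0811 in control replicates 1 to 3, with control replicate 2 above WAS replicate 1. Dld, for the E3 subunit that BCKDH shares with other dehydrogenase complexes, was at 58.4 ± 5.98 CPM (SD, n = 3) against 59.0 ± 6.87 CPM (SD, n = 3).

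Of 10 other transporter genes, 8 were tested and 0 had an unadjusted p under 0.05. The most abundant were Slc25a44, the mitochondrial BCAA carrier, with a log2 fold change of -0.086, and Slc6a17, a vesicular carrier of neutral amino acids, with -0.14. Slc6a19 was at 0 counts in every library and Slc43a1 held at most 2. None of the 6 other genes of leucine and ketone body breakdown had an unadjusted p under 0.05, and the most abundant, Oxct1 and Acat1, had log2 fold changes of -0.094 and 0.097.

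Of 13 genes of isoleucine and valine breakdown, 1 had an unadjusted p under 0.05. This was Acadsb, the short/branched-chain acyl-CoA dehydrogenase of isoleucine breakdown, with 701, 484 and 651 counts in WAS replicates 1 to 3 and 539, 472 and 508 in control replicates 1 to 3. The lowest WAS level, 52.3 CPM in replicate 2, lay just above the highest control, 51.3 CPM in replicate 1. For Acadsb the log2 fold change was 0.31 (SE 0.12, unadjusted p = 0.0245, adjusted p = 0.627 in edgeR). Without WAS replicates 1 and 3 it was 0.048. Abat, the GABA transaminase that also acts in valine breakdown and the most abundant gene of the list, was at 0.19. Of 7 genes from propionyl-CoA to succinyl-CoA, 1 had an unadjusted p under 0.05, namely Mmab, which makes the cobalamin cofactor of methylmalonyl-CoA mutase. Mmab had 229, 216 and 202 counts in WAS replicates 1 to 3 and 172, 184 and 164 in control replicates 1 to 3, so that the groups did not overlap. Its log2 fold change was 0.35 (SE 0.13, unadjusted p = 0.0194, adjusted p = 0.616) and lay between 0.31 and 0.41 with each library left out. Mcee and Mmadhc, the most abundant of these genes, had log2 fold changes of 0.052 and 0.10.

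Among 11 genes that handle the amino nitrogen of glutamate, an unadjusted p under 0.05 was reached by 1, with a higher level in WAS. Glud1, glutamate dehydrogenase, was at 193 ± 3.17 CPM (SD, n = 3) against 162 ± 9.03 CPM (SD, n = 3), a log2 fold change of 0.22 (SE 0.078, adjusted p = 0.585 in edgeR). The groups did not overlap. Glud1 kept its sign in all 14 alternative fits, with an unadjusted p under 0.05 in 11 of them. Without WAS replicates 1 and 3 it was 0.21 (unadjusted p = 0.0641). The most abundant genes of this list were Slc1a2, the main astrocytic glutamate transporter, and Glul, glutamine synthetase, with log2 fold changes of -0.10 and 0.058.

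None of 14 genes of leucine sensing by mTORC1 had an unadjusted p under 0.05. Rraga and Rragd, its most abundant genes, had log2 fold changes of 0.17 and -0.29, and the adjusted p of Rragd was 0.815 in edgeR. Without WAS replicate 2, which left WAS replicates 1 and 3, the adjusted p of Rragd was 0.0487 in edgeR. In that fit, 491 of 15246 genes tested had an adjusted p under 0.05. In the list of 22 genes downstream of ATF4, the transcription factor of amino acid shortage, 21 were tested, and 3 transporter genes had an unadjusted p under 0.05. Slc7a3, a carrier of cationic amino acids, had 179, 117 and 161 counts in WAS replicates 1 to 3 and 94, 109 and 109 in control replicates 1 to 3. Its log2 fold change was 0.58 (SE 0.18, unadjusted p = 0.00793, adjusted p = 0.539 in edgeR), and 0.47 or more with each library left out. The fit without WAS replicates 1 and 3 gave 0.28 (unadjusted p = 0.285). Slc7a1, another carrier of cationic amino acids, was at -0.32 (SE 0.11), and Slc7a11, the cystine carrier that pairs with the SLC3A2 heavy chain, at 0.26 (SE 0.12). Slc7a11 went down to 0.13 with 1 library left out, kept an unadjusted p under 0.05 in 2 of 6 such fits, and was at 0.14 (unadjusted p = 0.326) without WAS replicates 1 and 3. The differences of these transporters ran in both directions, while the most abundant, Atf4 itself and Ddit4, were at -0.086 and 0.076, Asns at -0.076 and Ddit3 at -0.044. The median of the list was -0.016, with 8 genes above 0 and 13 below. Of the 7 pathway genes named here for their p, Mmab and Slc7a1 also had an unadjusted p under 0.05 without WAS replicates 1 and 3.

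**Figure D4:**
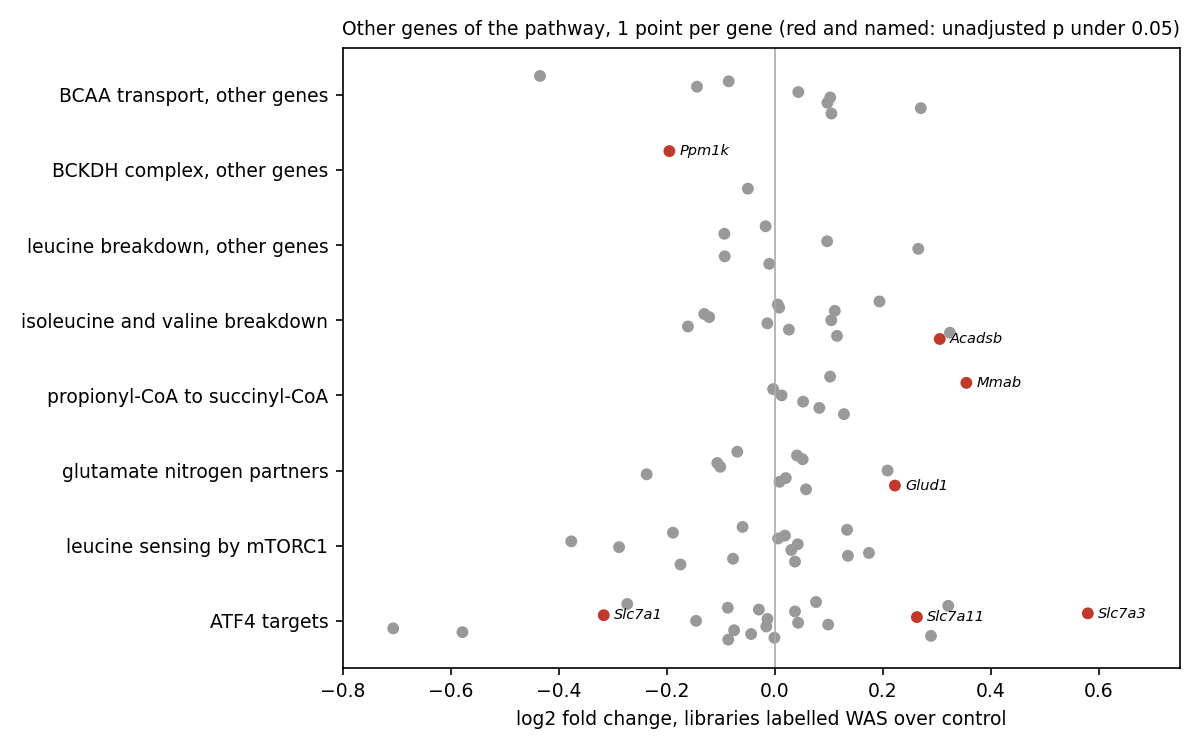
Log2 fold change of the libraries labelled WAS over those labelled control (x axis) for the 81 other pathway genes tested, 1 point per gene, in 8 lists (y axis), with Sesn2 shown in both lists that hold it. The 7 genes with an unadjusted p under 0.05 are in red and named, 5 to the right of 0 and 2 to the left.

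The genes whose profile over the 6 libraries was most like that of Slc7a5 were Cdc25b, Stk19 and Sqle. Likeness was measured as the Euclidean distance between log2 CPM profiles centred on their means, among 8468 genes within 4-fold of its level, and the distances were 0.060, 0.064 and 0.070. For Slc3a2 the nearest of 5016 genes were Polb, Iars2 and Ube2ql1, with distances of 0.044, 0.064 and 0.067. The order describes these 6 libraries alone.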

How the data were processed

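RNA from a forebrain hemisphere of each of 3 mice labelled WAS and 3 labelled control was analysed. The authors made the deposited read counts from single-end reads of 75 bp by Bowtie2 alignment and Bedtools counting of unique and multiple alignments. The build is mm10 per the labels' processing notes, and tool versions and annotation are not given in the sources used here. The deposited counts are whole numbers before the authors' quantile normalization.

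The quasi-likelihood test of edgeR 4.0.16 (R 4.3.3) was run on TMM-scaled counts, with group as the only term, for the 15239 genes with a mean log2(quantile-normalized count + 1) of at least 2, and p-values were adjusted by Benjamini and Hochberg over all of them. Standard errors are the log2 fold change over the square root of F. CPM was taken from library totals, and log2 CPM for profiles used a prior count of 2. The scripts were tested on simulated data. Alternatives were total-count scaling, DESeq2 1.42.0, limma 3.58.1 on quantile-normalized log2 counts, other filters, the replicate number as a block, and libraries left out. The labels name the libraries biological replicates. Library pairs differed by 4.79 to 18.5 times counting noise (chi-square over degrees of freedom), so none was a repeat deposit. Reads carried no molecular identifiers, so counting error understates technical error.

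The 10 genes and all lists were chosen with earlier results of these data known. Named from each list were genes with an unadjusted p under 0.05 and the 2 most abundant. B3gnt8, Gm20388, Rbfox3, Slc17a7, Syt1, Meg3, Aqp4, Aldoc, Slc6a19, Slc43a1, Asns and Ddit3 were named after their values were seen. One gene of a pathway list is not reported here and was left out of the lists and their counts. Metabolite data were not analysed here. Promoter sequences are from RefSeq (GRCm38.p6).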

Additional observations from a re-analysis of the deposited data

How the results depend on the processing

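No member passed the study's criteria or an adjusted p of 0.05 under any of the 14 alternatives. The number of members with an unadjusted p under 0.05, 1 as reported, was 0 on quantile-normalized counts with limma, 0 with the replicate block and 0 with either pair of libraries left out, and it ran from 0 to 2 with each library left out. Ivd fell short of that threshold on quantile-normalized counts (0.40), with the replicate block (0.43, unadjusted p = 0.0527) and in 4 of the 6 fits without 1 library, in which it ran from 0.18 to 0.58. The number of other pathway genes with an unadjusted p under 0.05, 7 as reported, ran from 4 to 9 with each library left out. Over all genes tested, the share ran from 4.09% without control replicate 2 to 13.7% without WAS replicate 2, fits with 4 and 9 such pathway genes. Without WAS replicate 1 and control replicate 2 the number was 3, beside 4.43% of all genes tested. The number of members whose groups did not overlap ran from 1 to 4 with each library left out and was 4 and 5 with the pairs left out, where fewer libraries make separation easier by construction. Fits leaving out a pair of libraries were chosen after seeing the data, and where only WAS replicate 2 is left it is assumed to vary like the controls.

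Signs of values near 0 turned around. Slc7a5 was 0.024 with total-count scaling and -0.085 to 0.043 with each library left out. Without 1 library, Slc3a2 ran from -0.029 to 0.093, Bckdha from -0.14 to 0.27 and Auh from -0.011 to 0.15. Without WAS replicates 1 and 3, Slc3a2 was -0.094, Bcat1 -0.016, Bckdha -0.084 and Auh -0.18. Without WAS replicate 1 and control replicate 2, Bckdha was -0.14 and Auh -0.040. The cause was not tested. The replicate block changed no other call among the members. Deviations of same-numbered libraries correlated at 0.066, 0.085 and 0.087, and each library correlated best with its own number. Differently numbered libraries correlated at -0.096 to 0.0094. The methods name no block, and the main fit had none. Whether the numbers mark a shared batch was not tested. Over all genes, the block gave 1428 and no block 1104 with an unadjusted p under 0.05, and 49 against 0 with an adjusted p under 0.05, none of the 49 a member. Bcat2 rests on counts of 7 to 21.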
